A study of Homo sapiens with 6 samples.

Results

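The response of 9 genes of the epithelial state was followed after knockdown of ZEB1 in SW480, a human colorectal adenocarcinoma cell line: the splicing regulators ESRP1 and ESRP2 and the transcription factors OVOL1, OVOL2, GRHL1, GRHL2, GRHL3, EHF and TFAP2A. They were listed by name, with earlier results of these data known. The study itself names OVOL2 among the genes that rose on ZEB1 knockdown. Of the 9 genes, 8 have a row among the 32029 genes of the count tables and 5 (ESRP1, ESRP2, OVOL2, GRHL1 and TFAP2A) had enough reads to be tested, out of 14996 genes tested in all; GRHL2 was not analysed here. All cells were of wild-type genotype and were transfected either with a control siRNA (siNC, 3 samples) or with an siRNA against ZEB1 (siZEB1, 3 samples), and RNA was taken 48 h later. The knockdown was transient and in 1 cell line, and the samples are not labelled by siRNA sequence, so that loss of ZEB1 and any other effect of the siRNA cannot be told apart. The study describes the samples of a group as biological replicates.

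ZEB1 is a zinc finger repressor that binds E-boxes and silences epithelial genes during epithelial-mesenchymal transition (EMT), in which epithelial cells lose their junctions and become motile. ESRP1 and ESRP2 are RNA-binding proteins that set the epithelial pattern of alternative splicing. The OVOL zinc finger proteins and the grainyhead-like (GRHL) factors maintain epithelial identity and are known to oppose ZEB1, EHF is an epithelium-specific ETS factor, and TFAP2A is an AP-2 factor of ectodermal epithelia and neural crest. In epithelial tumour cells ZEB1 and several of these genes are known to repress each other.

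With siZEB1, ESRP1, OVOL2 and ESRP2 rose and TFAP2A fell, whereas GRHL1 did not pass the test. The rises were unequal. ESRP1 and OVOL2 went from very few reads to about 3 CPM (read counts corrected for sequencing depth), while ESRP2 was already abundant with siNC and rose by 34.5%. EHF, GRHL3 and OVOL1 had too few reads to be tested. Thus 3 of the 5 tested genes were called higher, against 19.0% of all tested genes, and 1 was called lower, against 21.2% of all tested genes. In either direction 4 of the 5 were called, against 40.2% of all tested genes. A gene was called where its p from the two-sided quasi-likelihood test of edgeR, adjusted by Benjamini-Hochberg over all 14996 genes, was below 0.05. In bulk RNA, a change in every cell and a change in part of the cells cannot be told apart.

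The short sequences that tie these genes to the study's own assays and to E-boxes are given first. The OVOL2 stretch is the one the study's qRT-PCR primers amplify, and it shows which part of the transcript that assay reads. It covers bases 751 to 869 of the 1555-base coding transcript OVOL2-201 (GENCODE 29), inside the coding sequence that runs from base 244 to base 1071, and it spans the junction of exons 3 and 4, the last of its 4 exons. The same pair also gives a 119-base product on 2 OVOL2 transcripts annotated as processed rather than coding. Capitals mark the primer sites. The following pair is the one the study used for chromatin immunoprecipitation at OVOL2, and it matched no OVOL2 transcript. The study names CLDN7, ANXA7, CAB39L and ETV7 as the promoters significantly enriched in that assay, and OVOL2 is not among them.
OVOL2 qRT-PCR amplicon: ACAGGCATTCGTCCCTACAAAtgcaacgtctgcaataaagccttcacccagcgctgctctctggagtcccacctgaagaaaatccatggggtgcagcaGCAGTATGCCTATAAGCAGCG
OVOL2 ChIP forward primer: ggtgcaacgtcttgtgag
OVOL2 ChIP reverse primer: tcggcatctttagaccac

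For the start sites, RefSeq sequence (GRCh38.p14) was found for 4 of the genes: GRHL1, GRHL3, EHF and TFAP2A. The 250 bases before each start were searched on both strands for the E-box CACCTG, the element ZEB1 is known to bind. Among the 35116 start-site windows with sequence, 17.5% held it, and 20.6% of their 27305 genes had it before at least 1 start. ESRP1, OVOL2 and ESRP2, the genes that rose, had no such sequence and were not searched. A single copy was found for GRHL3, on the gene's strand at -21 to -16 from its first listed start, and it is printed with 10 bases on each side and the E-box in capitals. None was found for GRHL1, for either TFAP2A start, for either EHF start or for the other GRHL3 start. The windows of GRHL1 (chr2:9951443-9951692, plus strand) and of the first TFAP2A start (chr6:10419660-10419909, minus strand, printed 5′ to 3′ along the gene) are shown as those of the gene that did not pass the test and the gene that fell. GRHL1's window is the richer in G and C, at 81.6% against 59.6%. These letters do not show where ZEB1 was bound in these cells.
GRHL3 E-box: ttaacagctgCACCTGttgaggtata
GRHL1 upstream 250 bases: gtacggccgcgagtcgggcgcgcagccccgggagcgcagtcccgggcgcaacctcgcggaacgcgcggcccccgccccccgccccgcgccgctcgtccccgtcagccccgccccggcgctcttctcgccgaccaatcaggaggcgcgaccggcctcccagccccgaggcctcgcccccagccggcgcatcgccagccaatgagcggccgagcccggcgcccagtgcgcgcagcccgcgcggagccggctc
TFAP2A upstream 250 bases: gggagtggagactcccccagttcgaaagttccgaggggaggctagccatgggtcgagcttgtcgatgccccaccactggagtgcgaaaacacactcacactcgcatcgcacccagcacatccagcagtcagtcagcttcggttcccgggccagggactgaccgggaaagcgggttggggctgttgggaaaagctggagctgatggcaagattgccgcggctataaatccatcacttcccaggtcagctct

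The 6 libraries held between 19040636 and 22357633 counted reads, with a median of 21230794 for siNC and 19110385 for siZEB1, so that 1 read was worth about 0.0447 to 0.0530 CPM. CPM was scaled with TMM factors, and levels are given as mean ± SD of the 3 samples of a group. The biological coefficient of variation over all tested genes was 6.58%, and the median log2 fold change was -0.01. ZEB1 itself (ENSG00000148516) had 1247, 1276 and 908 reads with siNC and 136, 132 and 162 reads with siZEB1. Its CPM, 54.2 ± 6.24 with siNC and 7.51 ± 0.843 with siZEB1 (SD, n = 3 each), changed by -2.85 on the log2 scale (SE 0.11, adjusted p = 4.85e-12, edgeR). The keratins KRT8 and KRT18 of simple epithelia stood at 3455 ± 160 and 1418 ± 150 CPM with siNC. The 9 markers found in the tables, of 11 listed, for blood, endothelial, fibroblast and liver cells gave a summed level of 12.2 to 14.1 CPM with siNC and 10.3 to 12.4 CPM with siZEB1, and none of the 4 that could be tested was called by edgeR, none had an unadjusted p below 0.05, and none was called by DESeq2. Most of that level was COL1A1, with 143 to 227 reads per library, and CD3E, COL3A1, LUM, HBB and ALB had 0 to 4 reads per library. CEACAM5, a marker of many colorectal tumours, had 0 reads in each siNC sample and 1, 0 and 0 reads in the siZEB1 samples.

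**Figure D1:**
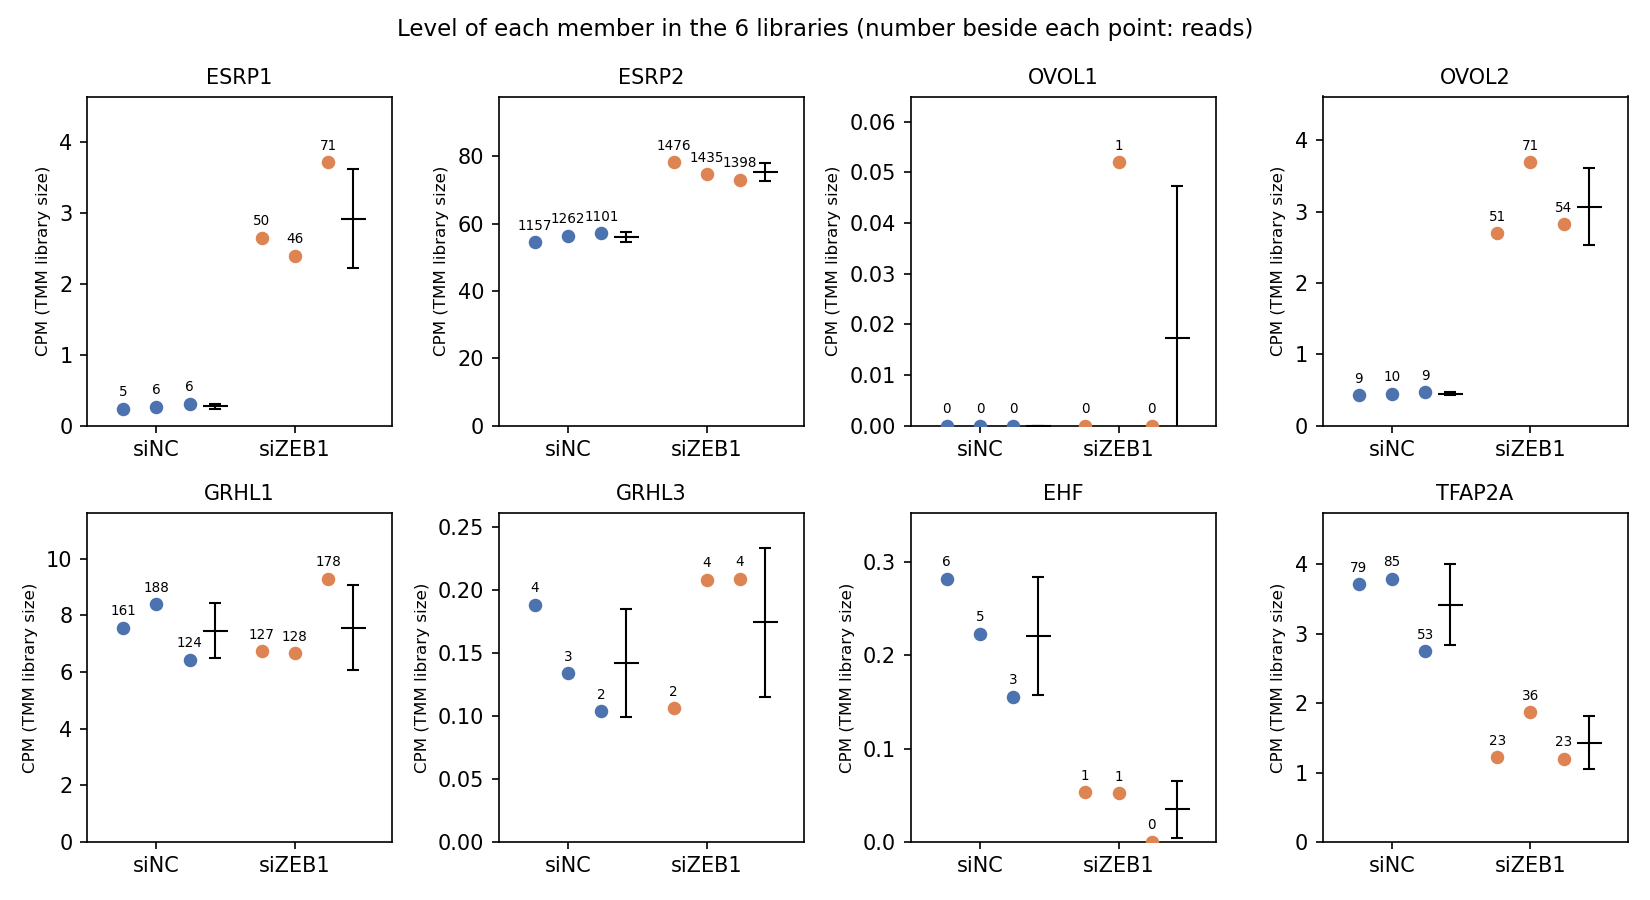
Level of each of the 8 genes in the 6 libraries, in CPM on linear axes that start at 0 and differ between panels. Points are samples with their read numbers, and bars are mean ± SD of 3 samples. ESRP1, ESRP2 and OVOL2 are higher in every siZEB1 sample than in every siNC sample, and TFAP2A and EHF are lower. The groups do not overlap for 49.5% of all tested genes either, and EHF had too few reads to be tested.

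ESRP1 showed the largest fold change of the 5 tested genes. It had 5, 6 and 6 reads in the siNC samples and 50, 46 and 71 reads in the siZEB1 samples. Every siZEB1 sample lay far above every siNC sample. In CPM it rose from 0.271 ± 0.0382 to 2.92 ± 0.698 (SD, n = 3 each), or by 3.40 on the log2 scale (SE 0.33, 95% interval 2.71 to 4.09, adjusted p = 3.58e-07). By log2 fold change it ranked 12 of the 14996 tested genes. Because the siNC level rests on 17 reads in all, the size of this rise is less certain than its direction.

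ESRP2, the paralog of ESRP1, had 1157, 1262 and 1101 reads with siNC and 1476, 1435 and 1398 reads with siZEB1. On the CPM scale the siNC samples stood at 54.4, 56.4 and 57.1 and the siZEB1 samples at 78.2, 74.6 and 73.0, without overlap. The rise from 56.0 ± 1.39 to 75.3 ± 2.63 CPM (SD, n = 3 each) gave a fitted log2 change of 0.43 (SE 0.07, 95% interval 0.29 to 0.57, adjusted p = 6.03e-05). It ranked 2038 of the 14996 tested genes, and its rise of 34.5% lies below the 1.5-fold limit of the study's methods. The rule given in those methods is an unadjusted p below 0.001 and a change over 1.5-fold. By that rule, with p from edgeR, 4.52% of all tested genes were higher and 6.70% lower. ESRP1 and OVOL2 were the 2 genes of this group counted higher, and TFAP2A was counted lower.

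The 95% intervals of the 2 ESRP fold changes do not meet. Per kilobase of exon, however, ESRP2 remained by far the more abundant. Its level was 10.1 ± 0.251 RPKM (CPM divided by the exonic length in kilobases) with siNC and 13.5 ± 0.473 RPKM with siZEB1, beside 0.0557 ± 0.00783 and 0.598 ± 0.143 RPKM for ESRP1. ESRP1 made up 0.491%, 0.540% and 0.618% of the summed ESRP1 and ESRP2 level in the siNC samples and 3.72%, 3.53% and 5.48% in the siZEB1 samples. The share thus went from 0.549% ± 0.0642 to 4.24% ± 1.07 (SD, n = 3 each; exact permutation test, two-sided, p = 0.1, the smallest that 3 samples against 3 allow). The summed level went from 10.1 ± 0.258 to 14.1 ± 0.404 RPKM, and most of that difference was ESRP2. In GENCODE 29 on GRCh38, ESRP1 (ENSG00000104413) lies on chromosome 8 from 94641074 to 94707466 on the plus strand, and ESRP2 (ENSG00000103067) on chromosome 16 from 68229111 to 68238102 on the minus strand. Exons of NFATC3 on the other strand cover 2.68% of the exonic bases of ESRP2.

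**Figure D2:**
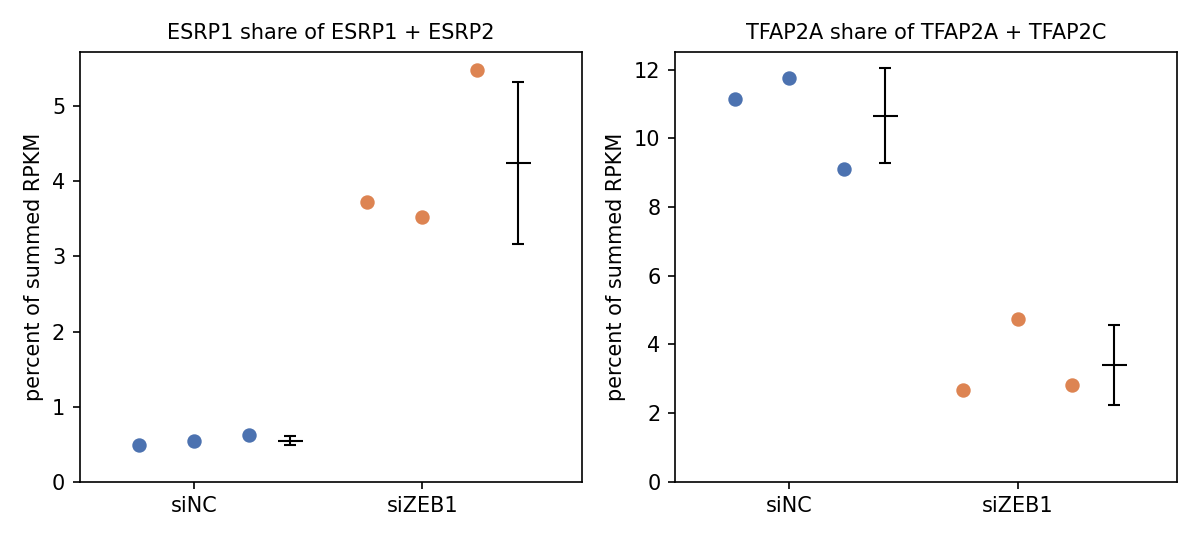
Share of ESRP1 in the summed RPKM of ESRP1 and ESRP2 (left) and of TFAP2A in that of TFAP2A and TFAP2C (right), in percent, per sample (points) with mean ± SD of 3 samples (bars). The ESRP1 share is 0.491% to 0.618% with siNC and 3.53% to 5.48% with siZEB1, and the TFAP2A share is 9.11% to 11.7% with siNC and 2.67% to 4.75% with siZEB1.

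OVOL2, a zinc finger repressor that holds cells in the epithelial state, rose by a fold whose 95% interval overlaps that of ESRP1. It had 9, 10 and 9 reads with siNC and 51, 71 and 54 reads with siZEB1. The groups did not overlap, and the siNC samples were nearly equal. In CPM it rose from 0.446 ± 0.0218 to 3.07 ± 0.541 (SD, n = 3 each), or by 2.77 on the log2 scale (SE 0.28, 95% interval 2.19 to 3.35, adjusted p = 5.42e-07), which ranked 22 of the 14996. OVOL2 (ENSG00000125850, chromosome 20 from 17956979 to 18059188, minus strand) shares 2.71% of its exonic bases with SNX5 on the same strand.

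OVOL1, its close relative, had no read in the siNC samples and 0, 1 and 0 reads in the siZEB1 samples. A count of 0 allows up to 3 reads per library, that is 0.134 to 0.159 CPM, so that a change below that level could not be seen. A rise to the siZEB1 level of OVOL2, 3.07 CPM, was not seen. The third OVO-like gene, OVOL3, had 1, 2 and 2 reads with siNC and 11, 7 and 4 reads with siZEB1 and did not reach the filter on low counts. The ratio of its summed reads, scaled for depth, was 4.84 with siZEB1 over siNC (95% exact counting interval 1.79 to 16.4, counting error only). Without the filter its adjusted p was 0.0326 over 32029 genes (edgeR), which is not comparable with the adjusted p of the filtered fit. OVOL1 (ENSG00000172818) lies on chromosome 11 from 65787022 to 65797219, and exons of AP001266.1 on the other strand cover 27.1% of its exonic bases.

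Of the grainyhead-like genes, GRHL1 was the one with a level that could be tested. It had 161, 188 and 124 reads with siNC and 127, 128 and 178 reads with siZEB1. The highest and the lowest of the siNC samples lie on both sides of 2 of the siZEB1 samples, so the groups overlap. The level was 7.47 ± 0.986 CPM with siNC and 7.56 ± 1.51 CPM with siZEB1 (SD, n = 3 each), which gives a log2 fold change of 0.01 (SE 0.15, 95% interval -0.30 to 0.33, adjusted p = 0.950). Changes as large as that of ESRP1, OVOL2, ESRP2 or TFAP2A lie outside this interval. The sign turned without siNC replicate 3 (log2 fold change -0.08) and without siZEB1 replicate 3 (-0.16). GRHL1 (ENSG00000134317) lies on chromosome 2 from 9951693 to 10002277 on the plus strand.

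GRHL3, known for its part in skin barrier and neural tube closure, had 4, 3 and 2 reads with siNC and 2, 4 and 4 reads with siZEB1. The groups overlap and the ratio of summed reads was 1.22 (95% exact counting interval 0.446 to 3.40), so neither a rise nor a fall was detectable. It is the gene whose start carries the E-box printed above (ENSG00000158055, chromosome 1 from 24319322 to 24364482).

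**Figure D3:**
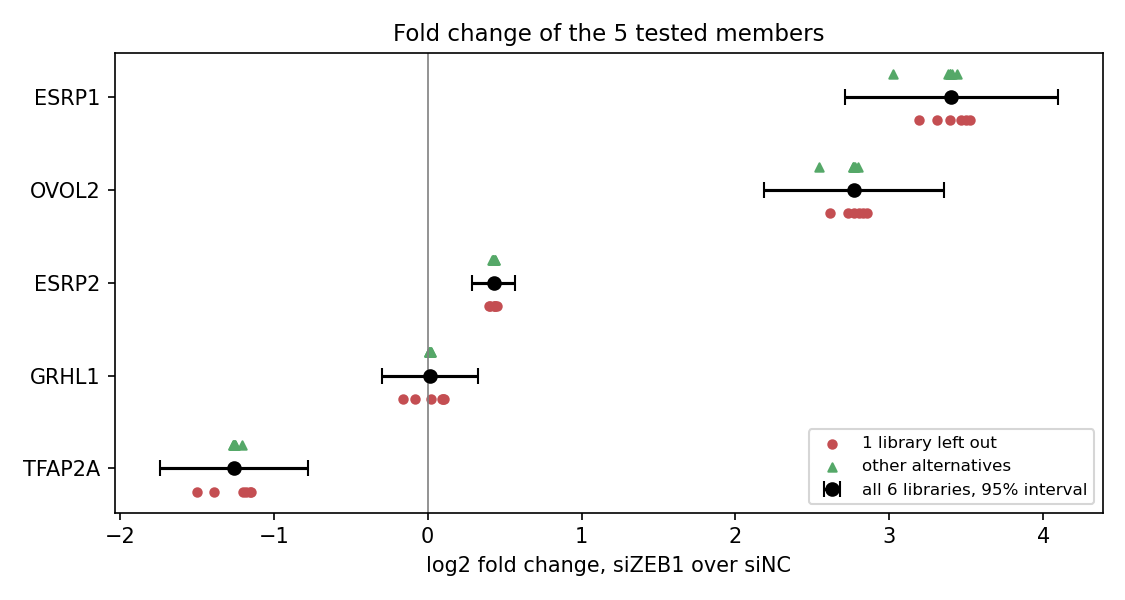
Log2 fold change of siZEB1 over siNC for the 5 tested genes, with the 95% interval from all 6 libraries (black), the values with 1 library left out (red circles) and those under other normalizations, filters, tests or prior counts (green triangles). ESRP1, OVOL2 and ESRP2 stay above 0 and TFAP2A below 0 throughout, and GRHL1 lies on both sides of 0.

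TFAP2A went the other way. It had 79, 85 and 53 reads with siNC and 23, 36 and 23 reads with siZEB1. The highest siZEB1 sample lay below the lowest siNC sample. In CPM it fell from 3.42 ± 0.582 to 1.43 ± 0.382 (SD, n = 3 each), a change of -1.26 on the log2 scale (SE 0.23, 95% interval -1.74 to -0.77, adjusted p = 0.000300). TFAP2A (ENSG00000137203, chromosome 6 from 10393186 to 10419659, minus strand) shares 16.7% of its exonic bases with TFAP2A-AS1 and TFAP2A-AS2 on the other strand. The sources used here do not say whether the counting used the strand. TFAP2A-AS2, listed as AL138885.3, had 13, 14 and 18 reads with siNC and 14, 13 and 11 reads with siZEB1 (log2 fold change -0.11, SE 0.36, adjusted p = 0.833). TFAP2A-AS1 had 6, 1 and 3 reads with siNC and 0, 0 and 2 reads with siZEB1.

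The paralog TFAP2C rose, with 229, 232 and 192 reads with siNC and 305, 262 and 289 reads with siZEB1 (log2 fold change 0.53, SE 0.10, adjusted p = 0.000508). Per kilobase of exon TFAP2C was the more abundant AP-2 gene, at 3.45 RPKM with siNC and 4.98 RPKM with siZEB1. TFAP2A accordingly made up 11.1%, 11.7% and 9.11% of their summed level in the siNC samples and 2.67%, 4.75% and 2.81% in the siZEB1 samples. The share went from 10.7% ± 1.38 to 3.41% ± 1.17 (SD, n = 3 each; exact permutation test, two-sided, p = 0.1, the smallest possible). These shares depend on the length used. The union of exons is 8274 bases for TFAP2A, whose longest transcript has 3829, and 3005 bases for TFAP2C, whose longest has 2866. With the longest transcript as the length, the TFAP2A shares would be larger. TFAP2E, another AP-2 gene, had 1, 7 and 1 reads with siNC and 14, 9 and 5 reads with siZEB1 and did not reach the filter.

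EHF had 6, 5 and 3 reads with siNC and 1, 1 and 0 reads with siZEB1. The groups did not overlap, as for 49.5% of all tested genes. The ratio of summed reads was 0.157 with siZEB1 over siNC (95% exact counting interval 0.0173 to 0.684, counting error only), from 14 reads against 2. Without the filter on low counts, edgeR gave a fitted log2 change of -2.47 (SE 1.12, adjusted p = 0.120), which did not pass. EHF (ENSG00000135373) lies on chromosome 11 from 34621093 to 34661057. The related epithelial ETS gene ELF3 had 5, 5 and 5 reads with siNC and 10, 5 and 8 reads with siZEB1, and SPDEF had 3 reads in each group in all.

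Levels of different genes can be ordered per kilobase of exon. With siNC the order was ESRP2 at 10.1 RPKM, GRHL1 at 0.939, TFAP2A at 0.413, OVOL2 at 0.205, ESRP1 at 0.0557, EHF at 0.0502, GRHL3 at 0.0360 and OVOL1 at 0. In that order the ranges of ESRP1 and EHF overlap, and so do those of EHF and GRHL3. With siZEB1 the order was ESRP2 at 13.5 RPKM, OVOL2 at 1.41, GRHL1 at 0.951, ESRP1 at 0.598, TFAP2A at 0.173, GRHL3 at 0.0442, EHF at 0.00798 and OVOL1 at 0.00450. Here the ranges of neighbours overlap for EHF and OVOL1. OVOL2 thus passed from below GRHL1 and TFAP2A to above them, and ESRP1 from below TFAP2A to above it.

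**Figure D4:**
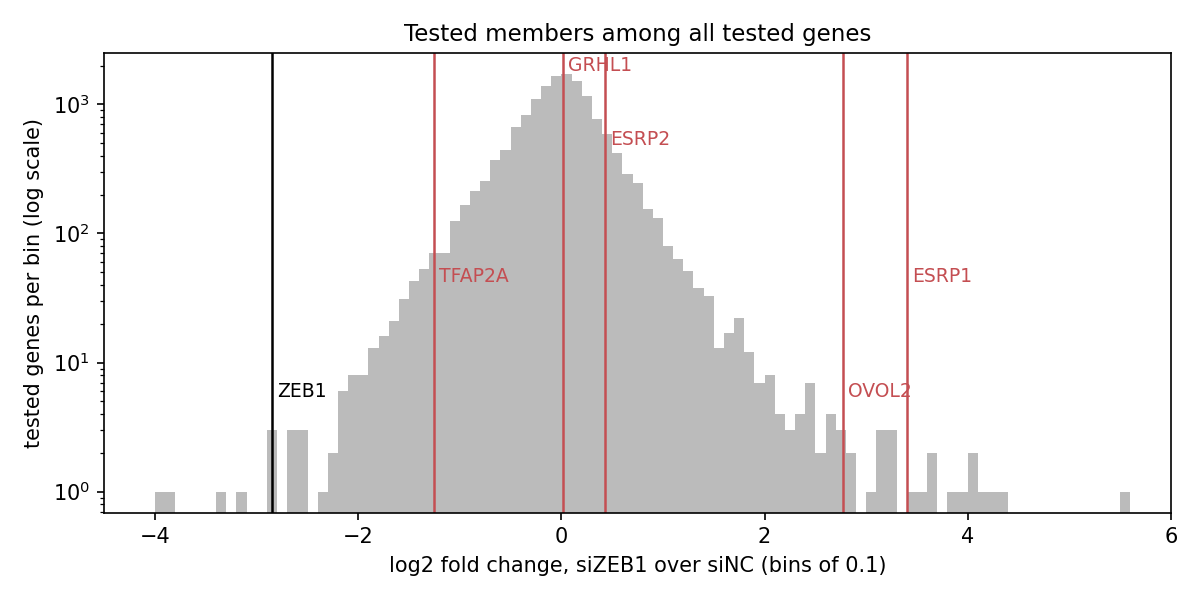
Histogram of the log2 fold changes of the 14996 tested genes in bins of 0.1, with the number of genes on a log axis, and the 5 tested genes (red lines) and ZEB1 (black line). ESRP1 at 3.40 and OVOL2 at 2.77 lie in the far right tail, ESRP2 at 0.43 and GRHL1 at 0.01 in the body, and TFAP2A at -1.26 toward the left tail.

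For the called gene of each family with the highest CPM with siZEB1, among the 9 listed genes, the genes with the most similar pattern were sought by the Euclidean distance of log2 CPM, less the siNC mean, over the 6 samples, among tested genes of at least 1 CPM on average. Nearest to OVOL2 were VIL1 (villin, of the intestinal brush border; distance 0.455, log2 fold change 2.34), MC5R (a melanocortin receptor; 0.551, 2.45) and CDS1 (a phospholipid synthesis enzyme; 0.569, 2.74). Nearest to TFAP2A were KALRN (a guanine nucleotide exchange factor; distance 0.258, log2 fold change -1.16), LIMCH1 (0.400, -1.17) and AFF3 (0.404, -1.34). ESRP2 had close neighbours in CDK16 (a cyclin-dependent kinase; distance 0.0425, log2 fold change 0.42), DPH5 (0.0524, 0.44) and GATAD2A (a subunit of the NuRD complex; 0.0563, 0.43). The distances of the ESRP2 neighbours are smaller than those of the other genes, and so is its SE.

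Among 11 further genes of the same DNA-binding families, 8 were in the tables and 4 were tested. Of these, TFCP2 and TFCP2L1 were not called, and TFAP2C and UBP1, a grainyhead relative of the CP2 branch, rose; over all tested genes 19.0% were called higher. UBP1 had a fitted log2 change of 0.24 (SE 0.07, adjusted p = 0.00709). The median log2 fold change of the 4 was 0.12, beside -0.01 for all tested genes.

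A list of 13 junction, protease and adhesion genes that grainyhead-like factors are known to bind or activate had 10 tested genes, of which 8 rose and none fell, by an adjusted p below 0.05 in edgeR, against 19.0% of all tested genes called higher and 21.2% called lower; none fell at an unadjusted p below 0.05 or in DESeq2 either. The median log2 fold change was 1.12. CDH1, which encodes E-cadherin, had 39, 54 and 26 reads with siNC and 594, 540 and 606 reads with siZEB1 (log2 fold change 4.01, SE 0.14). SPINT1, an inhibitor of the membrane protease matriptase, went from 2.96 ± 0.413 to 26.8 ± 3.68 CPM (3.18, SE 0.14). EPCAM, an epithelial adhesion molecule, went from 54.7 ± 2.29 to 453.6 ± 14.1 CPM (3.05, SE 0.06), and ST14, matriptase itself, from 1.41 ± 0.255 to 3.14 ± 0.249 CPM (1.15, SE 0.21). All 4 had adjusted p between 2.54e-15 and 0.000331 (edgeR). TGM1 and ARHGEF19 were not called, and RAB25, PRSS8 and DSG1 did not reach the filter. Of the grainyhead-like genes themselves, GRHL1 was not called, GRHL3 was near the limit of detection and GRHL2 was not analysed here. Whether grainyhead-like factors had a part in these rises was not tested. The list also holds genes that the study links to ZEB1 directly. It names E-cadherin among the targets that ZEB1 represses, and it reports ZEB1 at the CLDN7 promoter.

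**Figure D5:**
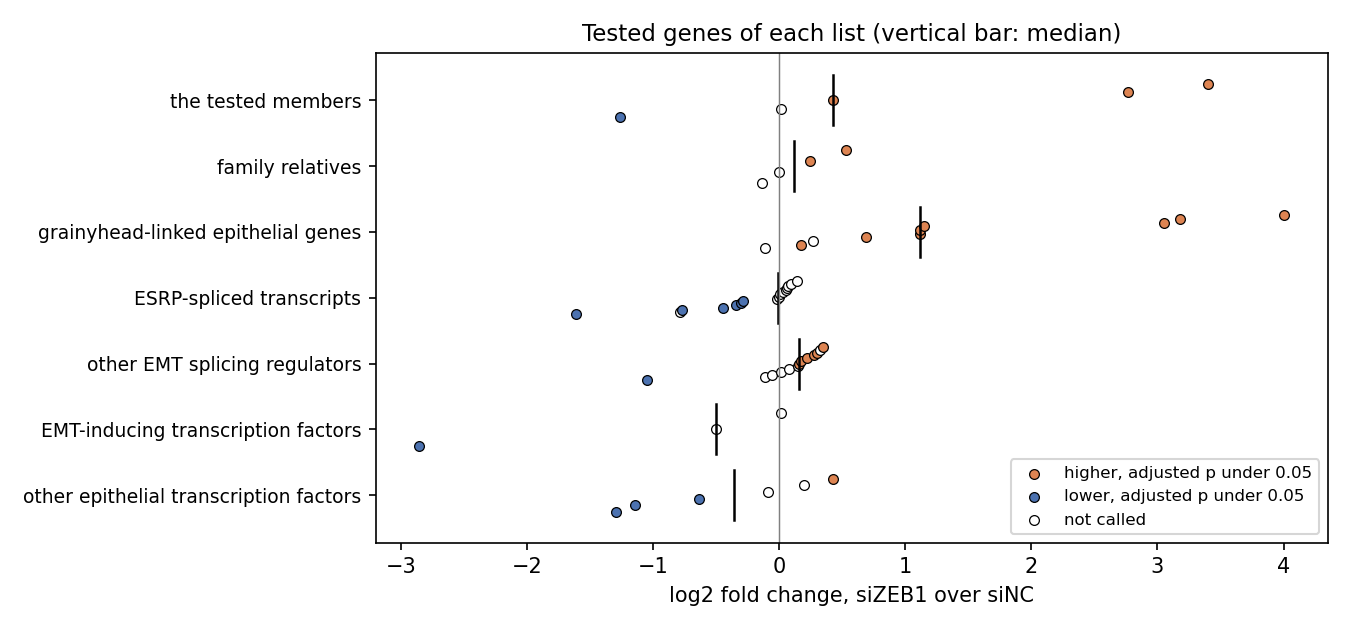
Log2 fold change of siZEB1 over siNC for each tested gene of the 7 gene groups, filled orange where called higher, blue where called lower and white where not called, with the median of each group as a vertical bar; height within a row only separates the points. The medians run from -0.50 for the EMT-inducing transcription factors to 1.12 for the grainyhead-linked epithelial genes. The EMT-inducing row holds 3 tested genes, and 1 of them is ZEB1, the siRNA target. The median of that row is the value of SNAI2, which was not called.

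The 16 genes whose transcripts ESRP proteins are known to splice were all tested. Gene counts give their level and say nothing of their splicing. None was called higher by edgeR or DESeq2 or had an unadjusted p below 0.05 in that direction, and 6 fell, against 21.2% of all tested genes called lower and 19.0% called higher; the median log2 fold change was -0.01. The receptor FGFR1 fell from 91.8 ± 4.21 to 53.9 ± 2.39 CPM (log2 fold change -0.77, SE 0.07, adjusted p = 1.40e-07). The exocyst subunit EXOC7 had a log2 fold change of -0.34 and the sterol-binding protein OSBPL3 of -0.30, and these fell too, with adjusted p of 0.00160 and 0.00391. FGFR2 and CD44, whose exon choice is a usual readout of ESRP activity, were named after their values were seen. FGFR2 had 13, 12 and 16 reads with siNC and 2, 7 and 3 reads with siZEB1 (log2 fold change -1.61, SE 0.50, adjusted p = 0.0158). That call was lost without siNC replicate 3, siZEB1 replicate 1 or siZEB1 replicate 3, with adjusted p of 0.0550, 0.0838 and 0.0577. CD44 stood at 130 ± 1.09 CPM with siNC and 136 ± 2.07 CPM with siZEB1, a difference that gave no call (log2 fold change 0.06, SE 0.06, adjusted p = 0.436).

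Of 13 other RNA-binding proteins known to act on epithelial or mesenchymal splicing, 6 rose and 1 fell, where 19.0% of all tested genes were called higher and 21.2% lower, and the median log2 fold change was 0.16. HNRNPF fell from 673 ± 31.4 to 327 ± 8.08 CPM (log2 fold change -1.04, SE 0.05, adjusted p = 2.41e-10). The rises were small: PTBP2 had a log2 fold change of 0.35, HNRNPM of 0.30 and SRSF1 of 0.28.

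Of the 3 tested EMT-inducing transcription factors, ZEB1, the siRNA target itself, was the only gene called by edgeR or DESeq2. Over all tested genes, edgeR called 40.2% in either direction and 21.2% lower. Neither SNAI1 nor SNAI2 had an unadjusted p below 0.05 (edgeR). SNAI2 was weakly counted, with 20, 19 and 8 reads with siNC and 15, 10 and 5 reads with siZEB1. SNAI1 had a fitted log2 change of 0.01 (SE 0.09, adjusted p = 0.918) and SNAI2 of -0.50 (SE 0.44, adjusted p = 0.393). The ZEB1 paralog ZEB2 had 1 read in the 6 samples, and TCF4, PRRX1 and FOXC2 did not reach the filter.

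Transcription factors of gut or stratified epithelium outside these families were listed too. Of 6 tested, 3 fell and 1 rose, beside 21.2% lower and 19.0% higher among all tested genes, and their median log2 fold change was -0.36. CDX2, the intestinal homeobox factor, fell from 103 ± 7.08 to 41.8 ± 2.66 CPM (log2 fold change -1.30, SE 0.07, adjusted p = 8.28e-10), GATA6 had a fitted log2 change of -1.14 (SE 0.17, adjusted p = 3.35e-05) and HNF4A of -0.63 (SE 0.07, adjusted p = 1.58e-06). Below the filter, FOXA2 had 2, 1 and 0 reads with siNC and 13, 5 and 15 reads with siZEB1, FOXA1 had 4, 3 and 2 reads with siNC and none with siZEB1, and TP63 had none with siNC and 4, 2 and 2 reads with siZEB1.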

How the data were processed

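RNA-seq libraries of SW480 cells, 3 siNC and 3 siZEB1, were analysed. The values deposited by the authors are raw read counts per Ensembl gene, not normalized; the submitters' processing notes name Trimmomatic, HISAT2, SAMtools, featureCounts and the hg38 build, and the strand setting and annotation are not given in the sources used here. The counts were filtered (filterByExpr), TMM-normalized and tested with edgeR 4.0.16 (glmQLFit and glmQLFTest, no covariate, R 4.3.3), and the code was tested on simulated data. Alternatives were DESeq2 1.42.0, other size factors and filters, a prior count of 2 in place of 0.125, the replicate number as a block, each sample left out, and the call rule of the study's methods. RPKM used the union of exons in GENCODE 29. Intervals of read ratios cover counting error only.

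The genes and lists were chosen with earlier results of these data known. Named were all 9 genes and ZEB1, and of each list up to 4 called genes with the largest fold change and at least 1 CPM in 1 group, plus genes below the filter; some genes that this would name are not reported here. Lists are described by counts and medians; no set test was run. Chi-square over degrees of freedom between replicates of 1 group was 2.26 to 9.53, so none is a copy of another. Markers of colorectal epithelium (8 of 9 tested) gave 3 called higher (KRT19, VIL1, ASCL2) and 3 called lower (CDX2, LGR5, EPHB2). Over all tested genes, 19.0% were called higher and 21.2% lower. DESeq2 called 3 of these markers higher and 2 lower. LGR5 was weakly counted, at 0.849 CPM with siNC and 0.209 CPM with siZEB1.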

Additional observations from a re-analysis of the deposited data

How the results depend on the processing

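ESRP1, OVOL2, ESRP2, TFAP2A and ZEB1 kept their direction under every alternative test, scaling, filter or left-out sample that kept the gene. Their adjusted p stayed below 0.05 under each of these (edgeR or DESeq2). By the call rule of the study's methods (over 1.5-fold and unadjusted p below 0.001) ESRP2 was not called, 2 genes were higher and TFAP2A was lower. With 1 sample left out, the log2 fold change ranged from 3.19 to 3.53 for ESRP1, 2.62 to 2.86 for OVOL2, 0.40 to 0.45 for ESRP2, -1.50 to -1.15 for TFAP2A and -2.95 to -2.79 for ZEB1. ESRP1 and OVOL2 fail a minimum of 10 counts in every sample, which by its construction leaves 1 of the 9 genes called higher. GRHL1 was not called under any alternative, and its log2 fold change, -0.16 to 0.11 with 1 sample left out, turned to -0.081 without siNC replicate 3 and to -0.16 without siZEB1 replicate 3. GRHL3, OVOL1 and EHF could be fitted only without the filter, where none passed (adjusted p = 0.866, 0.603 and 0.120).

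By the rule of the methods, which is not the only threshold the study names, 678 genes were higher and 1004 lower in all, and none of the family relatives, of the other splicing regulators or of the other epithelial factors was higher. Without a filter, where 2847 of 32029 genes were higher, 4 family relatives (OVOL3 and TFAP2E joining) and 2 other epithelial factors were higher. In that fit the adjusted p of ZEB1 was 4.04e-171, against 4.85e-12 with the filter (edgeR), so its adjusted p are not comparable with the main ones. OVOL3 had 5 reads with siNC and 22 with siZEB1 in all, and TFAP2E 9 and 28. With 1 sample left out, the count of other epithelial factors ranged from 0 (without siZEB1 replicate 3) to 2. Over all tested genes, 2305 to 2928 were then higher. The grainyhead-linked genes called higher, 8 with all 6 samples, numbered 6 to 7 with 1 sample left out, and 6 by the rule of the methods. CLDN7, 1 of those 8, had overlapping groups (adjusted p = 0.0317, edgeR). With the replicate block, 3 other splicing regulators were higher, and 2289 of all 14996 tested genes. Same-numbered samples did not deviate together (r = -0.0517, -0.0883 and -0.200 over 14996 genes), no sample correlated best with its own number, and the block changed the call of none of the 5 tested genes. With the longest transcript as the length, RPKM values were higher but the order of the 8 genes was the same in both groups. Depth limits what can be said of EHF, GRHL3 and OVOL1, and the size of the rise of ESRP1 and OVOL2, whose siNC levels rest on 17 and 28 reads.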
